A study of Mus musculus with 6 samples.

Results

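Store-operated calcium entry is the route by which a stimulated T cell refills and sustains its calcium signal. The second messenger IP3 opens IP3 receptors in the membrane of the endoplasmic reticulum, STIM proteins sense the fall of calcium inside it, and they then open ORAI channels in the plasma membrane, so that calcium enters and calcineurin can activate NFAT. SERCA pumps return calcium to the endoplasmic reticulum, plasma membrane calcium ATPases export it, and the kinase Itpkb, which is required for positive selection of T cells, removes IP3 by phosphorylation. The transcripts of 10 genes of this system were followed by their symbols in the table of read counts, which holds 48397 genes: the sensors Stim1 and Stim2, the channel subunits Orai1 and Orai2, the receptors Itpr1, Itpr2 and Itpr3, Itpkb, the SERCA pump Atp2a3 and the plasma membrane pump Atp2b4. All 10 were in the table, and 9 had enough reads to be among the 12312 genes tested.

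The cells were stage 0 iNKT cells, sorted from the thymus as cells that bound the PBS57-CD1d tetramer, carried CD24 and CD69, had little or no CD4, and lacked CD8 and CD44. There were 3 libraries from wild-type BALB/c mice and 3 from SKG mice, which carry a hypomorphic mutation of Zap70 on the same BALB/c background, in every cell and not in T cells alone. All mice were 8 to 10 weeks old, and each library was made by amplifying the RNA of about 1000 cells pooled from 3 mice, so that a replicate is a pool. The comparison asks whether weaker T-cell receptor signaling, of which calcium entry is a branch, went with other transcript levels of the calcium machinery itself.

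The libraries held between 37176544 and 43115544 reads on genes, and genes with at least 10 reads numbered between 10835 and 14791. Zap70 itself was at 374 to 498 CPM in BALB/c and 322 to 409 in SKG, where CPM are counts relative to library totals scaled by TMM, and since the SKG mutation alters the protein this level does not check the labels. All 8 T-lineage markers and all 5 stage 0 markers had at least 10 reads in every library, with sums that overlapped between the genotypes. Single markers did separate, in both directions. Egr2 was at 1097 to 1547 CPM in BALB/c and 493 to 956 in SKG. In the same order, the sort marker Cd69 was at 311.7 to 391.5 and 151.9 to 249.5. The T-lineage marker Cd2 was at 909 to 1081 and 788 to 885. Slamf6, which made up most of the stage 0 sum, was higher in SKG, at 2450 to 2877 CPM in BALB/c and 2962 to 3631 in SKG. Of 5 marker lists for other cells, 0 separated the genotypes by their sums, but BALB/c replicate 1 and SKG replicate 3 stood apart in several. BALB/c replicate 1 had the highest sums of double-positive thymocyte markers (467 CPM, against 71.3 to 242 in the other libraries), of B-cell markers (94.9, mostly Ighm) and of erythroid markers (69.7, against at most 1.57). SKG replicate 3 had the highest sums of myeloid markers (135 CPM, against 53.7 in BALB/c replicate 1 and 0.943 to 5.12 elsewhere) and of thymic epithelial markers (86.9, all Epcam), and its B-cell sum was 58.0. In that library Lyz2 was at 107 CPM, Mpeg1 at 17.8 and Fcgr3 at 10.7. The other myeloid markers, Csf1r, Itgam, Adgre1, Csf3r and Cd14, had 0 reads in it, and Cd14 had 0 reads in every library. Alas2, Krt5, Krt14 and Psmb11 also had 0 reads in every library.

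Between the genotypes, 0 of the 9 tested genes passed edgeR's quasi-likelihood test, where a call needed a 1.5-fold difference and an adjusted p (Benjamini-Hochberg) below 0.1, and the background was 0.00% of the 12312 genes tested. At an unadjusted p under 0.05 there were 0 of the 9 genes, against 5.45% of all genes. DESeq2 called 0 of the 9 without shrinkage of fold changes, where it called 2.58% of all genes with an adjusted p, and 0 with shrinkage, where it called 1.67%. The limma-voom test called 0 as well, with a background of 0.00%. Adjusted p from edgeR lay between 0.952 and 0.999 for these genes. The median log2 fold change, SKG over BALB/c, was 0.30 over the 9 genes and -0.02 over all genes tested, with 5 of the 9 above 0.

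For 2 of the 9 genes, Stim1 and Orai2, every SKG library was above every BALB/c library, as was the case for 6.77% of all genes tested. The opposite order, with all BALB/c libraries on top, was found for 0 of the 9 and for 7.12% of all genes. In bulk RNA, fewer cells that express a gene and less of its RNA per cell cannot be told apart.

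**Figure D1:**
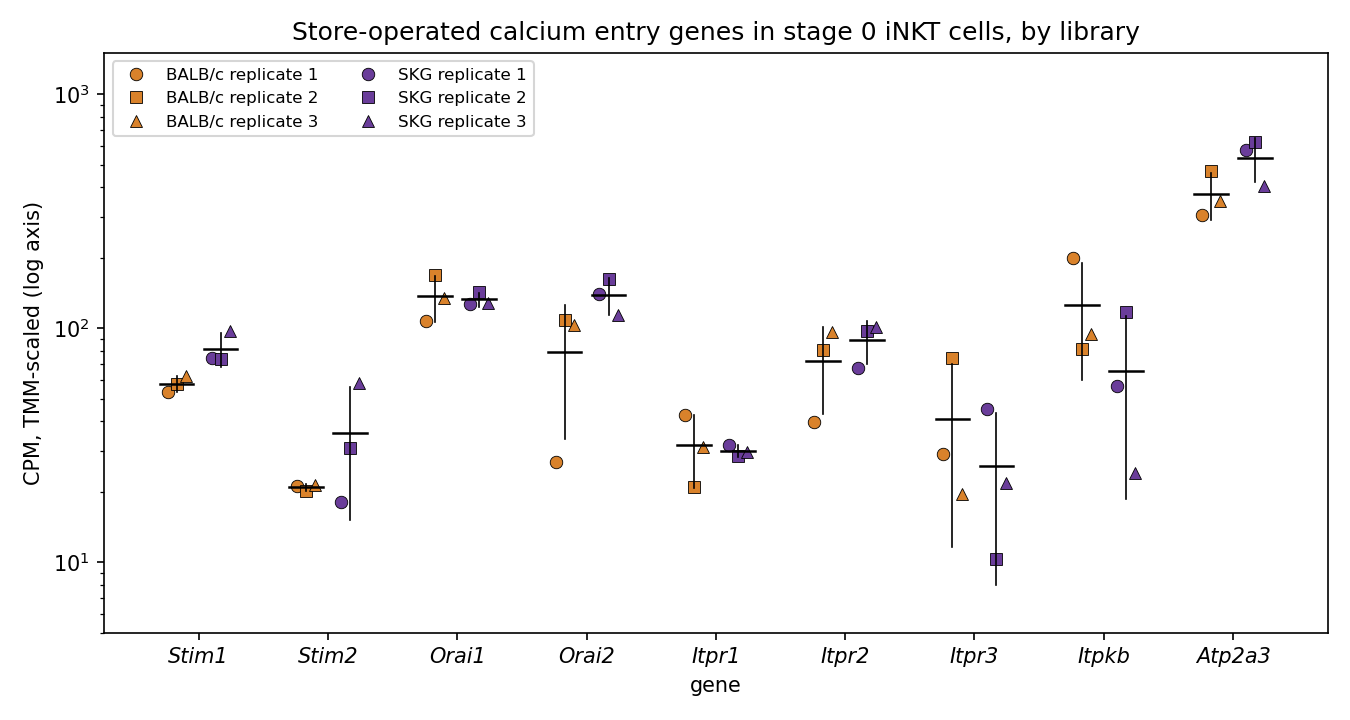
Expression of 9 store-operated calcium entry genes in CPM on a log axis, with 1 symbol per library, orange for BALB/c and purple for SKG. Horizontal bars are means and vertical bars ± 1 SD over 3 libraries. The SKG symbols of Stim1 lie between 73.5 and 97.5, above the BALB/c symbols, whereas those of Itpr3 and Itpkb spread widely within both genotypes. Atp2b4, with 0 to 9 reads per library, is not drawn.

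STIM proteins span the endoplasmic reticulum membrane and bring the calcium sensor to the ORAI channel. Stim1, the main sensor of T cells, was at 53.3, 57.9 and 62.6 CPM in the BALB/c libraries and at 74.4, 73.5 and 97.5 CPM in the SKG libraries. The lowest SKG library was above the highest BALB/c library. Mean levels were 57.9 ± 4.67 (SD, n = 3 libraries) and 81.8 ± 13.6 (SD, n = 3), a 1.41-fold difference (log2 0.50, standard error 0.24), with a 95% interval of the fold from 0.945 to 2.11 and an adjusted p of 0.952 from edgeR. DESeq2 gave Stim1 an unadjusted p of 0.0188 and an adjusted p of 0.306 without shrinkage.

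Stim2, which responds to smaller losses of stored calcium than Stim1, was at 21.2, 20.1 and 21.5 CPM in BALB/c and at 18.0, 30.7 and 58.3 CPM in SKG. The BALB/c libraries lay close together, the SKG libraries differed 3.23-fold among themselves, and the genotypes overlapped because SKG replicate 1 was the lowest of all. The fold change was 1.70 (log2 0.77, standard error 0.54, adjusted p = 0.988 from edgeR), and without SKG replicate 3 the log2 fold change was 0.24. That library had the highest sums of myeloid markers and of thymic epithelial markers, the former mostly from Lyz2 and the latter from Epcam alone. The part of other cells in the value was not tested.

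ORAI proteins form the pore of the calcium release-activated channel, and Orai1 carries most of that current in T cells. Orai1 was at 107, 169 and 134 CPM in BALB/c and at 127, 143 and 128 CPM in SKG. All SKG libraries fell within the range of the BALB/c libraries. The fold change was 0.971, and its 95% interval reached from 0.681 to 1.39.

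Orai2, which joins Orai1 in mixed channels and dampens them, was at 26.7, 109 and 103 CPM in BALB/c and at 140, 163 and 114 CPM in SKG. The genotypes did not overlap, but only the lowest SKG library was near the upper 2 BALB/c libraries, and BALB/c replicate 1 was 4.06-fold below the highest BALB/c library. The means were 79.5 ± 45.7 (SD, n = 3) and 139 ± 24.4 (SD, n = 3), a 1.75-fold difference with a 95% interval from 0.747 to 4.08 (adjusted p = 0.982 from edgeR). Without BALB/c replicate 1, the library with the highest sums of double-positive thymocyte, B-cell and erythroid markers, the log2 fold change went from 0.80 to 0.40. The cells were sorted for absent CD8 and low CD4. In that library Cd8a was at 121 CPM and Cd8b1 at 120, higher than in any other library. Among the double-positive markers only Cd4 and Arpp21 were highest elsewhere. The part of other cells in the value was not tested.

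Stim1 and Orai2 are the genes whose libraries did not overlap, so their promoters are shown here, from RefSeq on GRCm38.p6, each with 250 bases before and 50 after the annotated start. The window of Stim1 is chr7:102267569-102267868 on the plus strand and that of Orai2 is chr5:136170607-136170906 on the minus strand. Capitals mark matches, on either strand, to GCGNGGGCG, a motif of Egr factors, or to GGAAA, the core of NFAT sites, the factors named by the study.
Stim1 promoter: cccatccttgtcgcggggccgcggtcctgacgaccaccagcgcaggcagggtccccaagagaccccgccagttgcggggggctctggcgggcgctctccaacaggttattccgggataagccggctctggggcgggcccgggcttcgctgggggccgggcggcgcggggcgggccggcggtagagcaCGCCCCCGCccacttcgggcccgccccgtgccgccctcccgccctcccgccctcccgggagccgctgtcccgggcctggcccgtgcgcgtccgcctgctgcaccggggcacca
Orai2 promoter: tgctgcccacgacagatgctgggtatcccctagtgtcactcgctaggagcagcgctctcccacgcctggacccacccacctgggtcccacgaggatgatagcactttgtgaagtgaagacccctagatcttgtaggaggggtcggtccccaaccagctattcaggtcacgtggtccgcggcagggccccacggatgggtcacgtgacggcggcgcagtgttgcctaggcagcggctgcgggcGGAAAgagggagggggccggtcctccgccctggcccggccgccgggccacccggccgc
The Stim1 window held 1 match to GCGNGGGCG, at -63 from the start, and 0 to GGAAA, and the Orai2 window 1 match to GGAAA, at -8, and 0 to GCGNGGGCG. Of the 9 genes with a window in the table, which lacks Itpr1, 3 held GCGNGGGCG (Stim1, Stim2 and Itpr3) and 3 held GGAAA (Orai2, Itpkb and Atp2b4), where 5.55% and 61.3% of all 32851 windows held them. The 2 motifs shared no bases in these windows. GC content of the windows was between 68.0% and 78.7% for 7 of the genes and 39.3% for Itpkb and 47.7% for Atp2b4. The shares over all windows were not matched for GC content, so neither an excess nor a lack of a motif is read from these counts. A match of letters is a description of the reference strain, and binding was not measured in these files.

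IP3 receptors are tetrameric channels that release calcium from the endoplasmic reticulum. Itpr1, also the main IP3 receptor of cerebellar neurons, was at 42.7, 20.9 and 31.1 CPM in BALB/c and at 31.8, 28.5 and 29.4 CPM in SKG. The SKG libraries differed by no more than 1.11-fold and lay inside the BALB/c range. The fold change was 0.947, with a 95% interval from 0.465 to 1.93.

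Itpr2, the receptor most sensitive to IP3, was at 39.6, 80.6 and 96.3 CPM in BALB/c and at 67.8, 97.6 and 100.8 CPM in SKG. BALB/c replicate 1 was the lowest library, as it was for Orai2, and the other libraries overlapped. The log2 fold change of 0.30 (standard error 0.38) went to 0.01 without BALB/c replicate 1. Itpr3, the receptor type of low IP3 affinity, was at 29.1, 74.5 and 19.5 CPM in BALB/c and at 45.1, 10.3 and 21.8 CPM in SKG. Its libraries differed 3.82-fold within BALB/c and 4.36-fold within SKG, more than the fitted 1.59-fold difference, higher in BALB/c. The sign of its fold change turned without BALB/c replicate 2, from a log2 value of -0.67 to 0.08.

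Itpkb converts IP3 to IP4 and so limits calcium release. It was at 200 CPM in BALB/c replicate 1, 81.4 in replicate 2 and 94.1 in replicate 3, and at 56.4, 117 and 24.1 CPM in SKG replicates 1 to 3. The highest and the lowest library were BALB/c replicate 1 and SKG replicate 3, and SKG replicate 2 exceeded the lower 2 BALB/c libraries. Mean levels were 125 ± 65.0 and 65.8 ± 47.1 (BALB/c and SKG, SD, n = 3 each), 1.90-fold higher in BALB/c (log2 -0.93, standard error 0.62, adjusted p = 0.988 from edgeR). The log2 fold change was -0.40 without BALB/c replicate 1, -0.51 without SKG replicate 3 and -1.62 without SKG replicate 2. The 95% interval of the fold, from 0.187 to 1.48, left room for either direction.

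Atp2a3 encodes SERCA3, the pump of hematopoietic cells that returns calcium to the store. It was at 304, 469 and 350 CPM in BALB/c and at 579, 623 and 406 CPM in SKG. The upper 2 SKG libraries were above every BALB/c library, and SKG replicate 3 lay between BALB/c replicates 2 and 3. The means were 375 ± 84.8 (SD, n = 3) and 536 ± 115 (SD, n = 3), a 1.43-fold difference with a 95% interval from 0.970 to 2.11 (adjusted p = 0.952 from edgeR). Its unadjusted p was the lowest of the 9 genes, at 0.0652 with edgeR, and it was 0.0499 with limma-voom (adjusted p = 0.631).

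Atp2b4, a pump that exports calcium across the plasma membrane, was nearly absent: BALB/c libraries held 1, 1 and 6 reads, SKG libraries 9, 0 and 0. With 17 reads in all it was not tested, and no fold change is given. The libraries with 0 reads allow a level of up to 0.0772 CPM in SKG replicate 2 and 0.0830 CPM in SKG replicate 3, by a limit of 3 reads that covers counting error only. Another pump of its family, Atp2b1, had means of 122 ± 20.3 CPM for BALB/c and 92.0 ± 34.2 CPM for SKG (SD, n = 3 each), and its libraries overlapped.

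**Figure D2:**
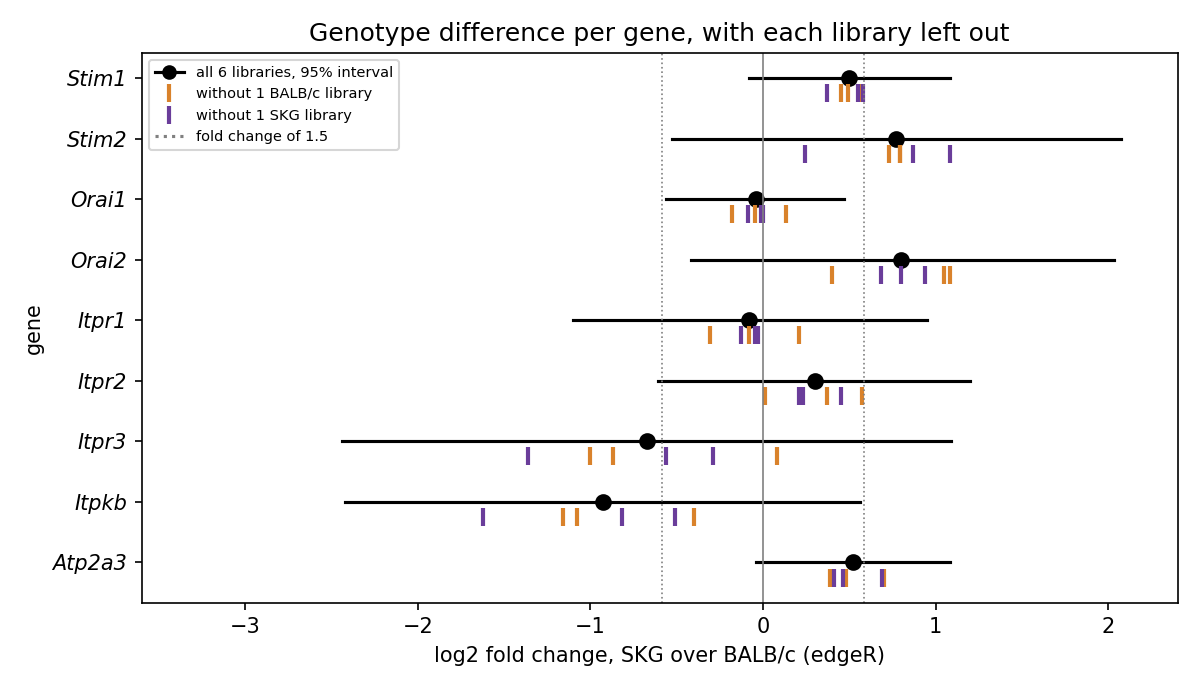
Log2 fold change, SKG over BALB/c, of 9 calcium entry genes from edgeR with 95% intervals (black), and with 1 BALB/c (orange) or 1 SKG (purple) library left out. All 9 intervals include 0, and the ticks of Orai1, Itpr1 and Itpr3 fall on both sides of it.

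The spread between libraries of one genotype set how small a difference could be seen. The biological coefficient of variation fitted by edgeR ranged from 22.9% for Atp2a3 and 23.2% for Orai1 through 28.0% for Stim1 to 66.1% for Itpr3. Among the 7107 tested genes with a mean of at least 20 CPM, whose median was 36.1%, Atp2a3, Orai1 and Stim1 were at percentiles 15.3, 16.1 and 29.0, and Stim2, Itpkb and Itpr3 at 80.8, 78.6 and 89.7. The pump, the main channel subunit and the main sensor were thus the steadiest members, and the intervals of the other 6 genes were wider.

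Levels of different genes were compared as CPM per kb of exonic length, with the exons of all transcripts merged. Atp2a3 was highest, at 57.7 to 88.8 in BALB/c and 76.8 to 118 in SKG, followed by Orai1 at 59.6 ± 13.4 and 57.9 ± 3.97 and by Orai2 at 13.1 ± 7.52 and 22.8 ± 4.02 CPM per kb (BALB/c and SKG means, SD, n = 3 each). Orai1 was above Orai2 in 6 of 6 libraries with no overlap of their ranges, and Atp2a3 above Orai1 in 6 of 6 libraries with overlapping ranges. Itpkb, Stim1, Stim2, Itpr2 and Itpr3 followed with mean levels over the 6 libraries between 9.12 and 3.70 CPM per kb, and each neighbor in this order overlapped the next. Itpr1 was at 1.68 and Atp2b4 at 0.00554 CPM per kb. Per kb, Orai2 was above both sensors and all 3 receptors in 5 libraries, the exception being BALB/c replicate 1, where Orai2 was at 4.40 and Stim1 at 5.14 CPM per kb. Divided by the longest annotated transcript, a choice made after seeing the data, the mean of Stim1 over the 6 libraries was 16.0 in place of 6.74 CPM per kb, since its merged exons span 10371 bases and its longest transcript 4362, and Stim1 then stood above Itpkb at 15.3.

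Paralogues were also compared within each library, as shares of the summed CPM per kb of their family. Stim1 made up 55.4%, 58.8% and 59.1% of Stim transcripts in BALB/c and 67.1%, 54.3% and 45.3% in SKG. The SKG libraries lay on both sides of the BALB/c libraries (difference of means -2.21 percentage points, two-sided exact permutation test, p = 0.7).

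In the Orai family, which here included Orai3, Orai1 made up 70.5%, 60.4% and 56.8% in BALB/c and 50.9%, 58.6% and 49.8% in SKG. Per kb of merged exons, the genotypes overlapped through SKG replicate 2 (difference -9.44 points, two-sided exact permutation test, p = 0.2), and the difference was -5.48 points without BALB/c replicate 1. Orai3, a subunit with a smaller known role in T cells, took between 16.3% and 33.5% in the 6 libraries. Set against Orai2 alone, a comparison added after the values were seen, Orai1 took 91.4%, 80.5% and 77.5% in BALB/c and 70.6%, 70.0% and 74.9% in SKG. All 3 BALB/c shares exceeded all 3 SKG shares (difference -11.3 points, two-sided exact permutation test, p = 0.1, the smallest that 3 against 3 libraries can give), and the difference was -7.14 points without BALB/c replicate 1. The overlap in the Orai1 share of the whole family depended on the length used. By reads not divided by length, Orai1 took 45.3% to 64.4% in BALB/c and 38.3% to 41.8% in SKG, without overlap. The difference was then -13.1 points, and -10.7 points with the longest transcript (two-sided exact permutation tests, p = 0.1 for both).

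Among IP3 receptors, Itpr2 made up 32.5%, 36.7% and 62.8% in BALB/c and 40.5%, 70.9% and 62.9% in SKG (difference 14.1 points, two-sided exact permutation test, p = 0.2). That difference was 7.69 points without SKG replicate 2, 8.37 without BALB/c replicate 1, 22.9 without SKG replicate 1 and 23.5 without BALB/c replicate 3. Per kb of merged exons Itpr3 was the most abundant receptor in BALB/c replicates 1 and 2 and SKG replicate 1, and Itpr2 in the others. This order depended on the length used, since by reads not divided by length Itpr2 led in 5 libraries and Itpr1 in BALB/c replicate 1. Itpr3 took between 12.3% and 55.6% (p = 0.5) and Itpr1 between 7.69% and 28.3% (p = 0.8, two-sided exact permutation tests). The difference in the Itpr3 share, -12.3 points, was -3.73 without BALB/c replicate 2, -5.30 without SKG replicate 2, -21.1 without BALB/c replicate 3 and -21.2 without SKG replicate 1. Over the 5 shares fixed for testing, adjusted p lay between 0.5 and 0.8. Exact Clopper-Pearson 95% intervals of the read shares before division by length were 1.44 to 3.22 points wide and cover counting error of reads only. They treat reads as independent although the RNA was amplified, so they can be too narrow. Some libraries of one genotype differed by less than these widths, such as BALB/c replicates 2 and 3 with Stim1 read shares of 74.3% and 74.5%. Others differed by more, such as SKG replicates 1 and 3 with 80.5% and 62.6%.

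**Figure D3:**
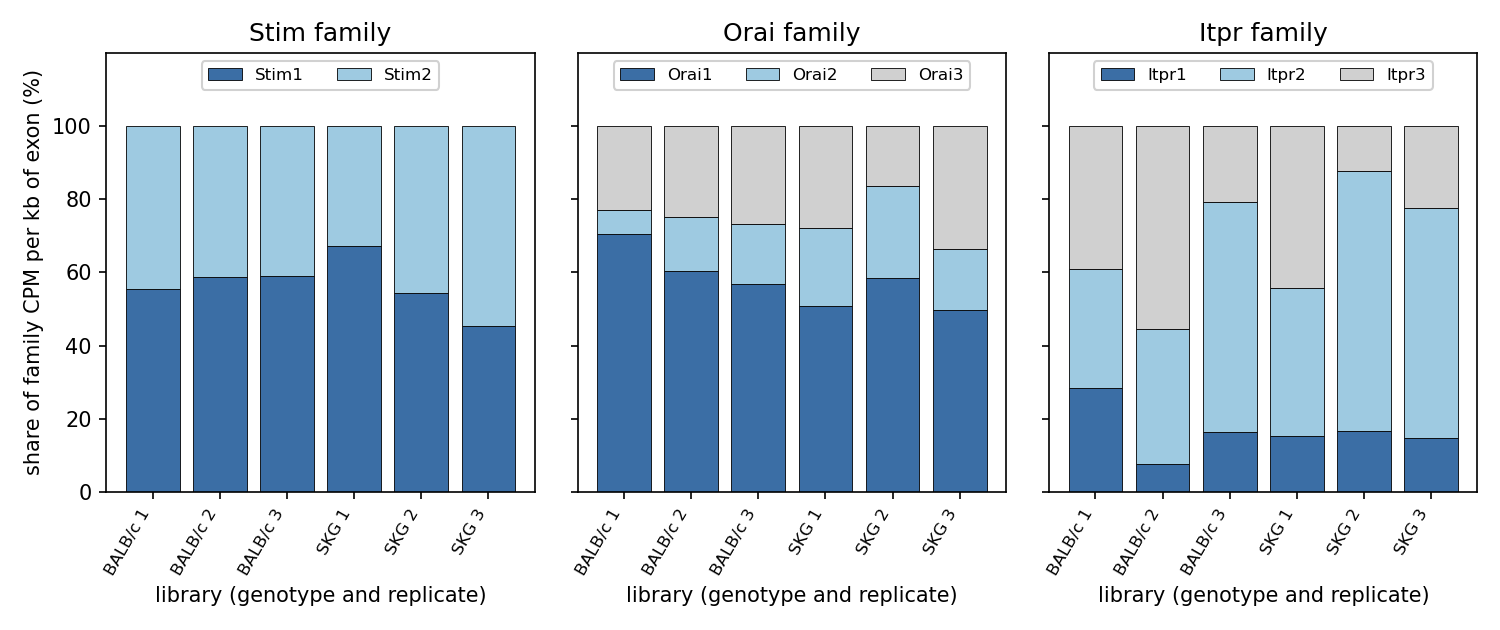
Share of each paralogue in the summed CPM per kb of exon of its family (%), by library, for the Stim, Orai and Itpr families. Orai1 makes up 49.8% to 70.5% of its family in all 6 libraries, whereas the leading IP3 receptor, at this length, is Itpr3 in 3 libraries and Itpr2 in 3.

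The 10 genes are spread over 6 chromosomes of GRCm38. Stim2 (53998499 to 54121057), Orai1 (123015074 to 123030456) and Orai2 (136147459 to 136170713) lie on chromosome 5, Itpr1 (108213096 to 108551109) and Itpr2 (146108299 to 146502223) on chromosome 6, Itpkb (180330485 to 180424802) and Atp2b4 (133699457 to 133801041) on chromosome 1. Stim1 (102267806 to 102437319) lies on chromosome 7, Atp2a3 (72961169 to 72993044) on chromosome 11 and Itpr3 (27057304 to 27122223) on chromosome 17. Reads were counted without regard to strand, and exons of other counted genes overlap 2.59% of the exonic bases of Itpr3 and 1.58% of those of Itpr1, where reads of both genes cannot be told apart. For the other 8 genes this overlap was between 0.00% and 0.631%.

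The wider calcium machinery was followed in 6 further lists with 73 genes, of which 54 were tested. At the same threshold edgeR called 0 of the 54, limma-voom 0, DESeq2 without shrinkage 2 (Plcg1 and Micu3) and DESeq2 with shrinkage 1 (Micu3), where the shares over all genes were 0.00%, 0.00%, 2.58% and 1.67%. At an unadjusted p under 0.05 SKG had the higher level for 2 genes and BALB/c for 5, together 7 of 54 against 5.45% of all genes. Every SKG library was above every BALB/c library for 4 of the 54 and the reverse held for 5, against 6.77% and 7.12% of all genes. Both of these counts of separated genes are near the background. The median log2 fold change of the 54 genes was 0.04.

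Of the STIM and ORAI partners, 9 of 11 were tested, with a median log2 fold change of 0.14. An unadjusted p under 0.05 was found for 1 of the 9, against 5.45% of all genes. Esyt1, an extended synaptotagmin that tethers the endoplasmic reticulum to the plasma membrane, was at 44.0, 13.5 and 58.6 CPM in BALB/c and 144, 102 and 142 CPM in SKG. Each SKG library was above each BALB/c library, by 3.34-fold in the fit (log2 1.74, standard error 0.53, unadjusted p = 0.0145, adjusted p = 0.830 from edgeR). Tmem110 (STIMATE), which supports the movement of STIM1 to membrane contacts, was at 22.9, 38.3 and 20.3 CPM in BALB/c and 42.0, 57.4 and 44.0 CPM in SKG, again without overlap (1.76-fold, adjusted p = 0.952 from edgeR). Saraf, which inactivates STIM1 and is listed under its older symbol Tmem66, was at 289 ± 39.4 and 319 ± 40.9 CPM (SD, n = 3), and Surf4 was the highest of the list at 416 ± 55.0 and 434 ± 43.3 CPM (SD, n = 3). Orai3 was at 52.1 ± 17.3 and 60.8 ± 21.9 CPM (SD, n = 3).

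Of the genes for IP3 production, IP3 metabolism and IP3 receptor partners, 12 of 15 were tested, with a median log2 fold change of 0.40. Plcg1 encodes phospholipase C-gamma1, which makes IP3 after T-cell receptor stimulation, and was at 241, 333 and 320 CPM in BALB/c and at 466, 453 and 477 CPM in SKG. The SKG libraries lay close together and all above the BALB/c libraries. The fold change was 1.56, with a 95% interval from 1.19 to 2.04, an unadjusted p of 0.00605 and an adjusted p of 0.686 from edgeR. DESeq2 gave an adjusted p of 0.0929 without shrinkage and 0.127 with it. Tespa1, which binds IP3 receptors and is needed for thymocyte selection, was at 213 ± 40.1 and 230.1 ± 95.9 CPM (SD, n = 3), and Lrmp was the highest of the list at 962 ± 40.6 and 904 ± 117 CPM (SD, n = 3).

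All 11 genes for mitochondrial calcium uptake were tested, with a median log2 fold change of -0.08. An unadjusted p under 0.05 was found for 3 of them, all higher in BALB/c. Over all 12312 genes tested, 5.45% had such a p, 378 genes with SKG higher and 293 with BALB/c higher. Micu3, a regulator of the mitochondrial uniporter, was at 8.75, 13.9 and 4.65 CPM in BALB/c and at 0.830 to 2.47 CPM in SKG, without overlap (log2 -2.62, standard error 0.99, adjusted p = 0.871 from edgeR and 0.0253 from DESeq2 with shrinkage). Smdt1, a small uniporter subunit, was at 74.2 ± 17.1 and 44.4 ± 8.02 CPM (SD, n = 3), and the outer membrane channel Vdac3 at 114 ± 23.5 and 70.3 ± 11.7 CPM (SD, n = 3), both without overlap. Vdac2 was the highest of the list at 321 ± 44.3 and 279 ± 34.4 CPM (SD, n = 3).

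Of the other pumps, exchangers and calcium binders of the endoplasmic reticulum, 10 of 16 were tested, with a median log2 fold change of -0.07. Calr, the calcium-binding chaperone calreticulin and the highest of the list, had means of 793 ± 94.3 and 597 ± 78.6 CPM (BALB/c and SKG, SD, n = 3 each) without overlap, a log2 fold change of -0.41 (adjusted p = 0.871 from edgeR). Atp2a2, the SERCA pump found in most tissues, was at 194 ± 61.9 and 143 ± 26.7 CPM (SD, n = 3), and its libraries overlapped, with a log2 fold change of -0.44 beside 0.52 for Atp2a3. Of other plasma membrane channels, 9 of 17 were tested, with a median of 0.23, and Trpv2, the highest of them, was at 364 ± 52.3 and 271 ± 20.6 CPM (SD, n = 3) without overlap (log2 -0.42, adjusted p = 0.871 from edgeR). P2rx7, an ATP-gated channel named here after its values were seen, separated in the other direction, at 0.0970, 17.3 and 10.7 CPM in BALB/c and 26.3, 60.4 and 57.1 CPM in SKG (log2 2.36, standard error 1.39, adjusted p = 0.972 from edgeR).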

How the data were processed

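RNA of 6 libraries of stage 0 iNKT cells was sequenced with 50-nt reads, after amplification with a kit that the methods and the labels name differently. Per the labels and the methods, the authors aligned reads with HISAT2 2.1.0 to GRCm38 and counted reads over exons with featureCounts (Subread 1.4.4, Ensembl release 85, mapping quality of at least 10), and deposited raw counts per gene. The fold changes and p-values of their own DESeq2 comparison, also deposited, were left aside. Groups follow the genotype labels.

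The main test was that of edgeR 4.0.16 in R 4.3.3 (filterByExpr, TMM, quasi-likelihood F test over 12312 genes, all 6 libraries, no covariate), with DESeq2 1.42.0 and limma 3.58.1 as alternatives. Standard errors were obtained by dividing the size of each log2 fold change by the root of F, and 95% intervals use the test's degrees of freedom. Exonic lengths and positions are from GENCODE M21 (GRCm38), matched by symbol. The replicates were separate pools, and depth per library is given with the data. In simulated counts, edgeR called all changed genes at a small spread between replicates, but only few of them at a large spread. The large spread was close to the common biological coefficient of variation of these data, 91.8%. The 9 tested entry genes had lower fitted values, from 22.9% to 66.1%. Same-numbered libraries were checked for pairing: residual correlations lay between -0.145 and 0.00289, so no block was used. The genes and lists were chosen with earlier results of these data known. Named genes are the 10, Zap70, partners fixed by role (Orai3, Plcg1, Tespa1, Atp2a2, Atp2b1 and the STIM and ORAI partners Tmem110 and Saraf), up to 6 other listed genes at an unadjusted p under 0.05 or called by DESeq2, and the highest of each list. Itprip was not analysed here. The values of 1 further list are not reported here. Alternatives were other tests, scalings and filters, replicate numbers as a block, and each library left out.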

Additional observations from a re-analysis of the deposited data

How the results depend on the processing

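Over all genes the count of calls went from 0 to 370 with DESeq2 without shrinkage, to 231 with shrinkage and to 2 without a filter on low counts. Among the 73 listed genes it went from 0 to 2 and 1 with the DESeq2 fits, and among the 10 entry genes it was 0 in all 15 alternatives, including either replicate number as a block. With adjusted p of at least 0.952 in edgeR, a count of 0 says little about stability. Leave-one-out counts of overlap, counts at p under 0.05 by setting, lengths by longest transcript and the share of Orai1 against Orai2 were added after the data were seen. With the library number as a replicate block the log2 fold change of Orai1 was 0.01 in place of -0.04. With each library left out in turn, log2 fold changes ranged from -0.18 to 0.13 for Orai1 (0.13 without BALB/c replicate 2), from -0.31 to 0.21 for Itpr1 (0.21 without BALB/c replicate 1) and from -1.36 to 0.08 for Itpr3 (0.08 without BALB/c replicate 2). The difference in the Stim1 share ranged from -7.99 (without SKG replicate 1) to 2.92 points (without SKG replicate 3), and that in the Itpr1 share from -6.73 (without BALB/c replicate 2) to 3.60 points (without BALB/c replicate 1). The cause was not tested. The direction was kept in the remaining fits of single genes, 131 of 135. Unadjusted p under 0.05 appeared for 1 gene in 7 alternatives, beside 4.4% to 7.86% of all genes in those settings. The gene was Stim1 with both DESeq2 fits, Itpkb without SKG replicate 2 and otherwise Atp2a3. Without SKG replicate 1, 4 genes had no overlap (Stim1, Stim2, Orai2 and Itpr2), all higher in SKG, beside 11.8% of all genes. This was the highest count, and with any other library left out it was 2 or 3. Those genes were higher in SKG, beside 10.1% to 13.4% of all genes, except for Itpkb without SKG replicate 2. Itpkb was then higher in BALB/c, beside 11.7% of all genes.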
